A study of Rattus norvegicus with 8 samples.

Results

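Fatty acid oxidation and peroxisome genes were examined in whole kidneys of 4-week-old HSRA rats. The set holds 42 genes chosen by symbol, of which 39 were measured under their own name among 17245 named genes, and all 39 passed the filter on dim genes. They comprise 18 genes of mitochondrial oxidation, 3 enzymes found in both mitochondria and peroxisomes, 15 peroxisomal genes (8 of them peroxins), and the acyl-CoA synthetase Acsl1 with the regulators Ppara and Ppargc1a. The remaining 3 genes, Acaa1a, Decr2 and Fabp3, were read only by probe sets that another gene shares, and are given apart.

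The HSRA-S kidneys came from 4 rats born with a single kidney, and those of HSRA-C, the controls, from 4 rats with a kidney pair. The labels call them biological replicates, and state neither their sex nor their litter. All animals belong to HSRA, a model of missing kidney development on 1 side that was bred from heterogeneous stock rats, so the controls come from the same model as the affected animals, and no other treatment is given in the labels. Each kidney was hybridised to its own Rat Gene 1.1 ST array, and values are log2 of the deposited intensities, whose array medians ran from 30.8 to 32.3. HSRA-C replicates 3 and 4 stood apart from the other 6 kidneys on the first principal component (16.7 and 19.5, against -12.8 to -1.20), and several differences are also given without them. Differences are HSRA-S minus HSRA-C with their standard error (SE). The comparison addresses how the transcripts of a kidney that grew alone differ from those of a kidney from a pair.

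The proximal tubule of the kidney burns fatty acids to power its transport work and is rich in mitochondria and peroxisomes. In mitochondria, acyl groups enter through the carnitine shuttle and are shortened by a cycle of acyl-CoA dehydrogenase, hydratase, hydroxyacyl-CoA dehydrogenase and thiolase, and electron transfer flavoprotein passes the electrons on to the respiratory chain. Peroxisomes shorten very long and branched chains with acyl-CoA oxidases, which yield hydrogen peroxide that catalase removes. Peroxins build the organelle and import its enzymes. The nuclear receptor PPAR alpha, encoded by Ppara, switches on many genes of both routes, with the coactivator encoded by Ppargc1a.

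The start regions of 4 members are shown, chosen by the differences of their transcripts in these data. Pex11a, Acadvl and Pex3 are among the 4 members whose groups did not overlap, and Eci1 had the widest difference. Each is the RefSeq window of 250 bases before to 50 bases after the gene's start, 5′ to 3′ on the gene's strand, and capitals mark the matches described below.
Pex11a (GRCr8 chr1:143096442-143096741, minus strand): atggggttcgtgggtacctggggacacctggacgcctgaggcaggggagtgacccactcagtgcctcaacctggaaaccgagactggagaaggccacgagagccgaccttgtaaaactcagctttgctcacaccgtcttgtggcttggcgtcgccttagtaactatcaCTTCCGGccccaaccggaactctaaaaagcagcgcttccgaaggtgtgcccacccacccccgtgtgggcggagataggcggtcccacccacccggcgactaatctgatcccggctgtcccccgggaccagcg
Pex3 (GRCr8 chr1:9774430-9774729, minus strand): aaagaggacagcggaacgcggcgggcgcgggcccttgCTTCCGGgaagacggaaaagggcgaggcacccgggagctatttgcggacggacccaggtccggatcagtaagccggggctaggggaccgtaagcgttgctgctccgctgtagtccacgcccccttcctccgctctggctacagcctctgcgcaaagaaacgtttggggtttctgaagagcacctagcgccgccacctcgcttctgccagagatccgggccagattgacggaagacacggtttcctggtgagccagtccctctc
Acadvl (GRCr8 chr10:55236656-55236955, minus strand): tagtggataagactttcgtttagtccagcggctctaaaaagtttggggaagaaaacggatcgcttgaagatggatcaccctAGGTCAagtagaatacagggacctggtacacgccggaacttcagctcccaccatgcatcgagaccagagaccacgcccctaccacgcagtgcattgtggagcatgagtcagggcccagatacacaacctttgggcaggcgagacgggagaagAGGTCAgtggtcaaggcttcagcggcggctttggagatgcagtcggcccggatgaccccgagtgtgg
Eci1 (GRCr8 chr10:13961000-13961299, plus strand): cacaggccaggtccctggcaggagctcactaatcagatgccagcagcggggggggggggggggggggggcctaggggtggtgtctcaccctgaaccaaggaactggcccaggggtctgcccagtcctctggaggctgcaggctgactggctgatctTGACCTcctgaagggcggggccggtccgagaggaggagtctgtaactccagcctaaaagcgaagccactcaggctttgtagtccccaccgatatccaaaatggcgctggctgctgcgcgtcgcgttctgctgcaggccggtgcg

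Such windows were held for 36 of the 42 members and for 27457 genes in all. Of 5 motifs searched on both strands, the nuclear receptor core AGGTCA lay in 7 member windows (19.4%, against 15.7% of all windows), with 2 matches in Acadvl, 169 and 17 bases before the start, and 1 in Eci1, 94 bases before it and on the opposite strand. The ETS core CCGGAAG lay in 3 member windows (8.33%, against 9.22% of all), those of Pex11a, Pex3 and Cpt2. In Pex11a and Pex3 it reads on the opposite strand. In Pex11a it began 82 bases and in Pex3 213 bases before the start. The NRF1 motif, GCGCA and GCGC with any base between them, lay in 4 member windows (11.1%, against 4.71% of all), those of Abcd3, Etfb, Etfdh and Ppara. The full PPAR element, a direct pair of AGGTCA cores with any base between them, lay in 0 member windows, against 0.0583% of all, and the ERR element TNAAGGTCA in 0, against 1.15% of all. Both contain AGGTCA, and a match to either also counts as a match to that core. These matches describe letters in the windows and were not tested for binding. Member windows had a median of 60.2% G and C, against 52.3% in all windows. The window of Pex5, the remaining member without overlap, held none of the 5 motifs and is not shown.

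Most members lay slightly above the controls in the solitary kidney, and none passed the test. Of 39 members, 33 had a positive difference, where 55.5% of all 13796 genes tested had one, and the median difference was 0.15 on the log2 scale, against 0.0153 over all genes. Of the 39 members, 29 were among the 3449 genes with the highest means, whose median difference was 0.025. The number of members at an adjusted p under 0.05 was 0, as was the number of genes in the whole table (0%), and the adjusted p of members ran from 0.331 to 0.993. At an unadjusted p under 0.05, 12 members were higher (7.36% of all genes) and 0 lower (4.69% of all genes), and 6 were higher when each array was first centred on its own median (6.37% of all genes). The groups did not overlap in 4 members, all of them higher in HSRA-S, where 4.12% of all genes were higher without overlap and 6.29% were without overlap in either direction. These 4 were Pex11a, Pex5, Pex3 and Acadvl. Leaving out HSRA-C replicates 3 and 4 lowered the members' median to 0.0805, and only 2 members, Eci1 and Pex11a, were then higher at an unadjusted p under 0.05 (2.68% of all genes), while Acox2 and Pex6 were lower (2.17% of all genes).

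**Figure D1:**
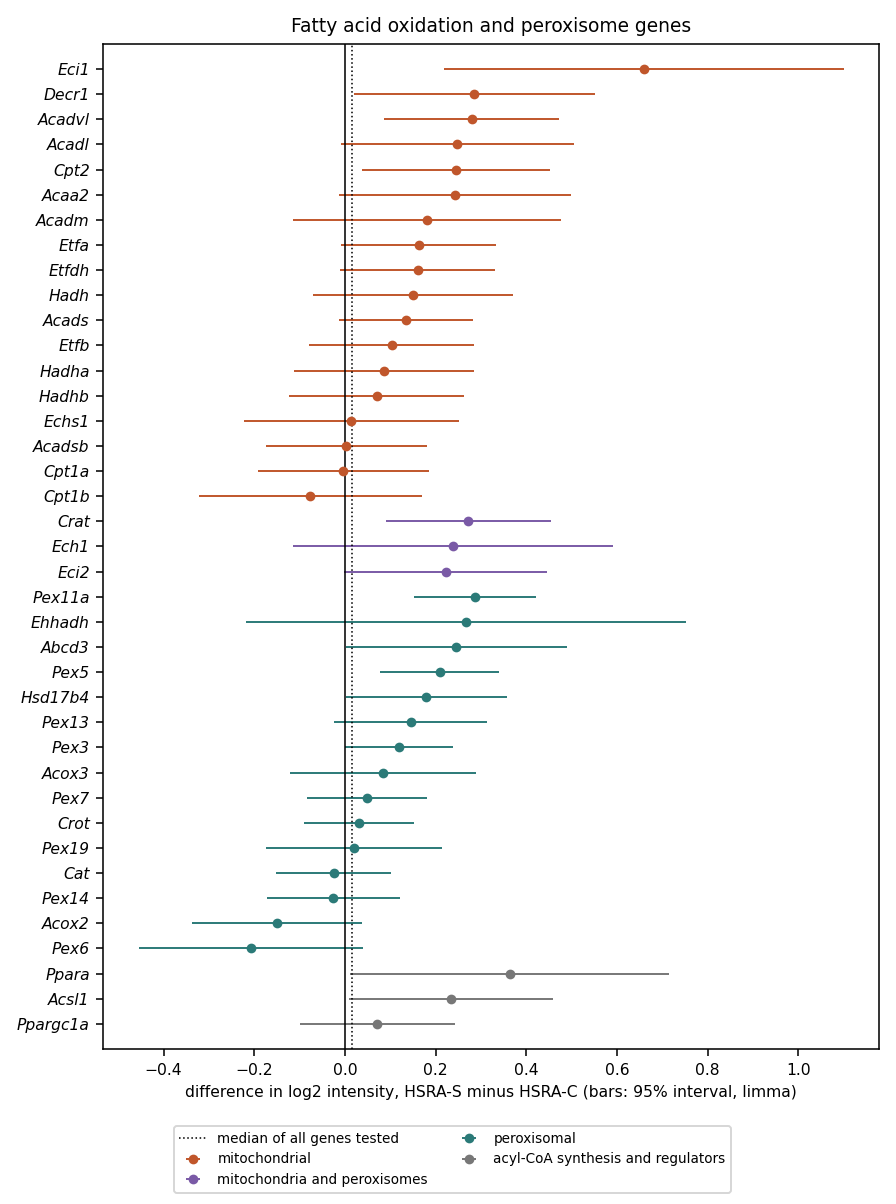
Difference in log2 intensity of each of the 39 members, HSRA-S minus HSRA-C, with the 95% interval from limma; colours give the compartment and the dotted line the median of all genes tested (0.015). Points lie between -0.21 (Pex6) and 0.66 (Eci1), and 33 lie above 0.

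Among the auxiliary enzymes of mitochondrial oxidation, which prepare unsaturated chains for the cycle, the isomerase Eci1 had the widest difference of all members. Its log2 level was 10.29, 10.11, 9.31 and 9.96 in HSRA-S, against 9.21, 8.94, 9.43 and 9.45 in HSRA-C. Replicates 1, 2 and 4 of HSRA-S lay above every control, and replicate 3 lay within the control range. The difference was 0.66 (SE 0.20, 1.58-fold, unadjusted p = 0.00765, adjusted p = 0.331), and 0.84 without HSRA-C replicates 3 and 4. The reductase Decr1, which saturates a double bond that blocks the cycle, stood at 7.56, 7.35, 7.19 and 7.82 in HSRA-S, against 7.13, 7.17, 7.22 and 7.26 in HSRA-C. HSRA-S replicate 4 was highest and replicate 3 lay among the controls, and the difference was 0.29 (SE 0.12, adjusted p = 0.391), or 0.17 without replicate 4.

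The acyl-CoA dehydrogenases, which take the first step of the cycle for chains of different length, were all on the higher side, 5 of 5. Acadvl, for very long chains, stood at 8.56, 8.51, 8.49 and 8.82 in HSRA-S, against 8.45, 8.27, 8.22 and 8.33 in HSRA-C. Its groups did not overlap, and the difference was 0.28 (SE 0.0864, 1.21-fold, adjusted p = 0.333). Without HSRA-C replicates 3 and 4 it was 0.24. Acadm, for medium chains, was at 9.2999, 9.18, 9.34 and 9.47 in HSRA-S, against 9.303, 9.47, 8.95 and 8.84 in HSRA-C. Here HSRA-C replicates 3 and 4 were the lowest kidneys and the other 6 overlapped, and the difference of 0.18 (SE 0.13) turned to -0.063 without those 2 controls. The long-chain enzyme Acadl differed by 0.25 (SE 0.12), the short-chain enzyme Acads by 0.13 (SE 0.0663) and Acadsb, of branched short chains, by 0.00311 (SE 0.0795). Acadl was at 0.13 without HSRA-S replicate 4, and Acadsb at -0.0573 without HSRA-C replicates 3 and 4.

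The carnitine shuttle was split, with 1 of 3 genes on the higher side. Cpt1a, the malonyl-CoA-sensitive entry step of the liver and kidney type, was at 8.75, 8.87, 8.901 and 9.13 in HSRA-S, against 8.82, 8.99, 8.88 and 8.98 in HSRA-C, and the groups overlapped (difference -0.00364, 95% interval from -0.19 to 0.19). Cpt1b, the muscle type, differed by -0.0767 (SE 0.11). Cpt2, which rebuilds acyl-CoA inside the mitochondrion, was at 7.99, 7.83, 7.76 and 8.13 in HSRA-S, against 7.82, 7.7002, 7.63 and 7.57 in HSRA-C. Only HSRA-S replicate 3 fell below the highest control, and the difference was 0.24 (SE 0.0926, adjusted p = 0.361). It was 0.16 without HSRA-C replicates 3 and 4.

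Genes of the later steps of the cycle had differences from 0.0139 to 0.24. The thiolase Acaa2, which releases acetyl-CoA, was at 10.38, 10.203, 10.11 and 10.697 in HSRA-S, against 10.11, 10.07, 10.06 and 10.19 in HSRA-C, with HSRA-S replicate 4 highest and replicate 3 among the controls (difference 0.24, SE 0.11). The trifunctional protein subunits Hadha and Hadhb differed by 0.0865 and 0.0697 (SEs 0.0889 and 0.0864), the dehydrogenase Hadh by 0.15 (SE 0.0991) and the hydratase Echs1 by 0.0139 (SE 0.11). The direction of Echs1 turned without HSRA-C replicates 3 and 4, to -0.18. Without HSRA-S replicate 4 the differences of Acaa2, Hadh, Hadha and Hadhb were 0.13, 0.0541, 0.0196 and 0.028. A second probe set of Hadha differed by 0.0704. The electron transfer flavoprotein subunit Etfb was at 10.18, 10.06, 9.89 and 10.22 in HSRA-S, against 10.08, 9.996, 9.94 and 9.92 in HSRA-C, overlapping between groups (difference 0.10, SE 0.0817). Its partner Etfa and the dehydrogenase Etfdh, which hands the electrons to ubiquinone, differed by 0.16 and 0.16 (SEs 0.0765 and 0.0767). Without HSRA-C replicates 3 and 4 these 3 genes stood at 0.0489 for Etfb, 0.0577 for Etfa and 0.0771 for Etfdh.

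All 3 enzymes found in both organelles were on the higher side. Crat, the carnitine acetyltransferase that buffers acetyl-CoA, was at 9.39, 9.404, 9.11 and 9.41 in HSRA-S, against 9.17, 9.06, 9.03 and 8.97 in HSRA-C. HSRA-S replicates 1, 2 and 4 lay close together above every control, and replicate 3 lay below the highest control. The difference was 0.27 (SE 0.0815, adjusted p = 0.331), and 0.21 without HSRA-C replicates 3 and 4. The isomerases Ech1 and Eci2 differed by 0.24 (SE 0.16) and 0.22 (SE 0.10). Ech1 was at 0.40 without HSRA-S replicate 3, 0.14 without HSRA-S replicate 4 and 0.38 without HSRA-C replicates 3 and 4, and Eci2 at 0.14 without HSRA-S replicate 4.

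**Figure D2:**
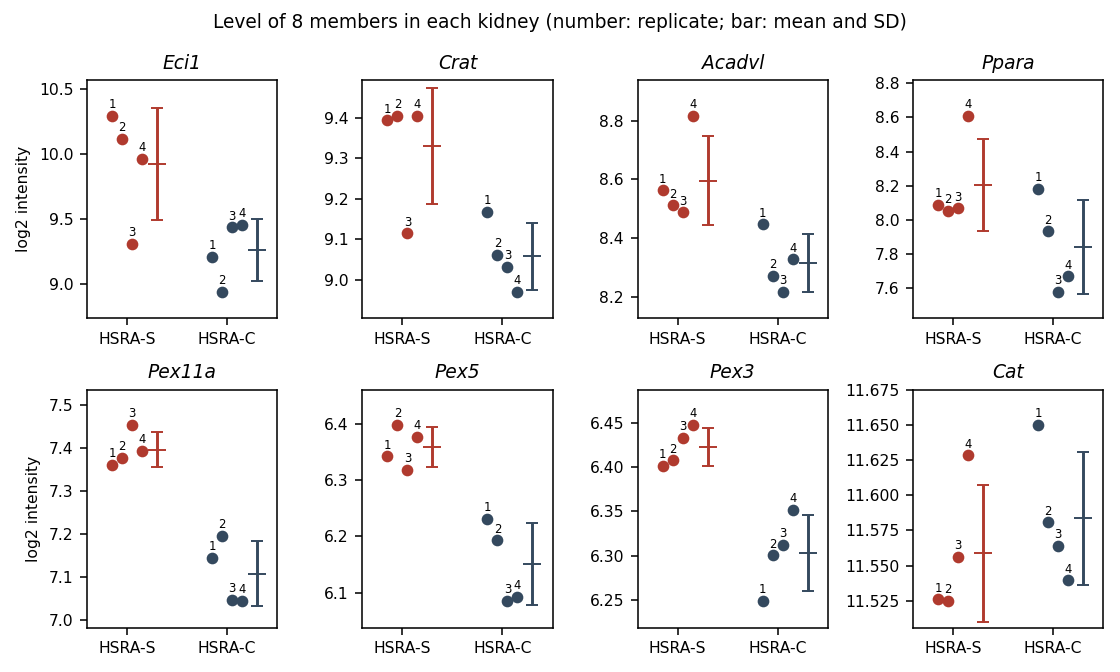
Log2 intensity of 8 members in each kidney, HSRA-S left and HSRA-C right in each panel, with the replicate number beside each point and a bar for the mean and SD (n = 4 each); the vertical scales differ and do not start at 0. Pex11a, Pex5, Pex3 and Acadvl do not overlap between groups, HSRA-S replicate 3 of Eci1 and Crat lies apart from replicates 1, 2 and 4, and Cat overlaps.

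Of the 4 members without overlap, 3 were peroxins. Pex11a, which elongates peroxisomes before they divide and is a textbook target of PPAR alpha in rodent liver, had the smallest p of the members (rank 26 of 13796 genes). Its log2 level was 7.36, 7.38, 7.45 and 7.39 in HSRA-S, against 7.15, 7.197, 7.05 and 7.04 in HSRA-C. The groups did not overlap, the means being 7.40 ± 0.0407 in HSRA-S kidneys and 7.11 ± 0.0752 in the controls (SD, n = 4 in each group), and the difference was 0.29 (SE 0.0602, 1.22-fold, unadjusted p = 0.000765, adjusted p = 0.331). Without HSRA-C replicates 3 and 4 it was 0.22. Another probe set that Pex11a shares with small nuclear ribonucleoprotein copies differed by -0.0552, with the groups overlapping.

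Pex5, the receptor that carries enzymes with the common peroxisomal targeting signal, was at 6.34, 6.398, 6.32 and 6.38 in HSRA-S, against 6.23, 6.19, 6.08 and 6.09 in HSRA-C. All HSRA-S kidneys lay above all controls, and HSRA-C replicates 3 and 4 were lowest (difference 0.21, SE 0.0592, adjusted p = 0.331, and 0.15 without those controls). Pex3, the membrane anchor needed for peroxisome formation, was at 6.401, 6.41, 6.43 and 6.45 in HSRA-S, against 6.25, 6.3001, 6.31 and 6.35 in HSRA-C. Its groups did not overlap either, by a narrow margin, and the difference was 0.12 (SE 0.0535, adjusted p = 0.414). Pex13, a docking protein of the import pore, was at 8.48, 8.57, 8.63 and 8.62 in HSRA-S, against 8.54, 8.54, 8.32 and 8.32 in HSRA-C. HSRA-C replicates 3 and 4 lay below the other 6 kidneys, and the difference of 0.14 (SE 0.0753) became 0.034 without them.

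The remaining peroxins were not on the higher side as a block. Pex6, an ATPase that recycles the receptor, was at 7.58, 7.28, 7.28 and 7.65 in HSRA-S, against 7.85, 7.72, 7.58 and 7.47 in HSRA-C, with HSRA-S replicates 2 and 3 lowest. It had the lowest difference of all members, -0.21 (SE 0.11, adjusted p = 0.477), and was at -0.34 without HSRA-C replicates 3 and 4, while its second probe set differed by -0.0445. Pex7, the receptor of the second targeting signal, differed by 0.0485, the docking protein Pex14 by -0.0263 and the chaperone of membrane proteins Pex19 by 0.019, with SEs of 0.0593, 0.0657 and 0.087. Without HSRA-C replicates 3 and 4, Pex19 was at -0.0909 and Pex14 at -0.0694. A second probe set of Pex19 differed by -0.00292.

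Of the peroxisomal enzymes, Ehhadh, the bifunctional enzyme of straight chains, varied most within a group. Its log2 level was 9.93, 9.35, 8.76 and 9.83 in HSRA-S, against 9.18, 9.03, 9.27 and 9.31 in HSRA-C. HSRA-S replicate 3 was the lowest of all 8 kidneys and replicates 1, 2 and 4 were the 3 highest, so the difference of 0.27 had an SE of 0.22 and became 0.50 without that replicate, and 0.11 without HSRA-S replicate 1. Hsd17b4, the bifunctional enzyme of branched and very long chains, was at 9.03, 8.903, 8.88 and 9.09 in HSRA-S, against 8.905, 8.88, 8.65 and 8.75 in HSRA-C (difference 0.18, SE 0.0792). The transporter Abcd3, which brings long branched acyl-CoAs into the peroxisome, was at 8.88, 8.61, 8.69 and 8.95 in HSRA-S, against 8.75, 8.66, 8.36 and 8.38 in HSRA-C (difference 0.25, SE 0.11). In Hsd17b4 and Abcd3 alike HSRA-C replicates 3 and 4 were the lowest kidneys, and without them the differences were 0.0844 and 0.0805.

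Catalase, the marker enzyme of the organelle, did not follow. Cat was at 11.53, 11.52, 11.56 and 11.63 in HSRA-S, against 11.65, 11.58, 11.56 and 11.54 in HSRA-C, with overlapping groups and a difference of -0.0249 (95% interval from -0.15 to 0.10). The branched-chain oxidases were split, Acox2 at -0.15 (SE 0.0837) and Acox3 at 0.0833 (SE 0.0919). Acox2 was at -0.26 and Acox3 at -0.021 without HSRA-C replicates 3 and 4. The carnitine octanoyltransferase Crot, which prepares shortened chains for the mitochondrion, differed by 0.031 (SE 0.0543).

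The 3 members without a probe set of their own are given by the shared sets. The sets shared by the thiolase genes Acaa1a and Acaa1b number 2, and the first was at 8.395, 8.25, 8.0002 and 8.41 in HSRA-S, against 8.17, 8.03, 7.91 and 7.91 in HSRA-C. The second was at 8.22, 8.13, 7.78 and 8.45 in HSRA-S, against 7.93, 7.71, 7.797 and 7.88 in HSRA-C. Their differences were 0.26 and 0.32, with overlapping groups. The set that the peroxisomal reductase Decr2 shares with Rab11fip3 was at 7.97, 7.61, 7.604 and 7.75 in HSRA-S, against 7.45, 7.596, 7.25 and 7.19 in HSRA-C. The set that Decr2 shares with Nme4 was at 8.38, 8.36, 8.25 and 8.45 in HSRA-S, against 8.29, 8.30, 7.75 and 7.56 in HSRA-C. The differences were 0.36 and 0.39, and HSRA-C replicates 3 and 4 were the lowest kidneys in both sets. The set that the fatty acid binding protein Fabp3 shares with Zcchc17 differed by 0.22. Which of the sharing genes carries the signal cannot be told apart.

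Acsl1, which activates long-chain fatty acids to acyl-CoA, was at 8.94, 8.68, 8.53 and 8.98 in HSRA-S, against 8.56, 8.62, 8.45 and 8.56 in HSRA-C (difference 0.23, SE 0.10, adjusted p = 0.404). HSRA-S replicates 1 and 4 were the highest and replicate 3 lay among the controls. Ppara was at 8.09, 8.05, 8.07 and 8.61 in HSRA-S, against 8.18, 7.93, 7.58 and 7.67 in HSRA-C. HSRA-S replicate 4 was highest, replicates 1 to 3 lay between 8.05 and 8.09, and HSRA-C replicates 3 and 4 were lowest. The difference of 0.36 (SE 0.16, adjusted p = 0.404) was 0.23 without HSRA-S replicate 4 and 0.15 without HSRA-C replicates 3 and 4. Ppargc1a was at 9.61, 9.697, 9.65 and 9.38 in HSRA-S, against 9.48, 9.59, 9.49 and 9.504 in HSRA-C, where HSRA-S replicate 4 was the lowest kidney (difference 0.0716, SE 0.0764).

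The median difference of mitochondrial members was 0.16, with 16 of 18 on the higher side, and that of peroxisomal members was 0.0833, with 11 of 15. Without HSRA-C replicates 3 and 4 these medians were 0.079 and 0.034, and the peroxisomal one was 0.046 without HSRA-S replicate 1 and 0.0469 without HSRA-C replicate 3. At an unadjusted p under 0.05, 4 of 18 mitochondrial and 5 of 15 peroxisomal members were higher, where 7.36% of all genes were. The gap between the medians was 0.0722, and it was not tested because the members were chosen with results of these data known. It was 0.0261 without HSRA-S replicate 4, 0.0236 when the 3 shared enzymes were counted as peroxisomal, and -0.00136 with the tubule covariate described below.

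The classes of members are set side by side here kidney by kidney, with no test of how they vary. The mean deviation of the 18 mitochondrial genes from their average over the 8 kidneys was 0.14, 0.0168, -0.0632 and 0.23 in HSRA-S, against -0.057, -0.0406, -0.11 and -0.12 in HSRA-C. HSRA-S replicates 1 and 4 were well above the controls, replicate 2 slightly above, and replicate 3 among them. The 8 peroxins deviated by 0.0293, 0.0246, 0.0277 and 0.0667 in HSRA-S, against 0.0068, 0.0368, -0.10 and -0.0872 in HSRA-C. Here the HSRA-S kidneys lay close together, and 1 control, replicate 2, lay above 3 of them. The other 7 peroxisomal genes deviated by 0.15, -0.0239, -0.0909 and 0.15 in HSRA-S, against 0.0333, 4.0e-04, -0.10 and -0.11 in HSRA-C. Here too HSRA-S replicates 1 and 4 were highest and replicate 3 was the lowest of its group. For the 3 enzymes of both organelles the deviations were 0.25, 0.11, -0.18 and 0.32 in HSRA-S, against -0.13, -0.13, -0.11 and -0.13 in HSRA-C, with HSRA-S replicate 3 below all controls.

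**Figure D3:**
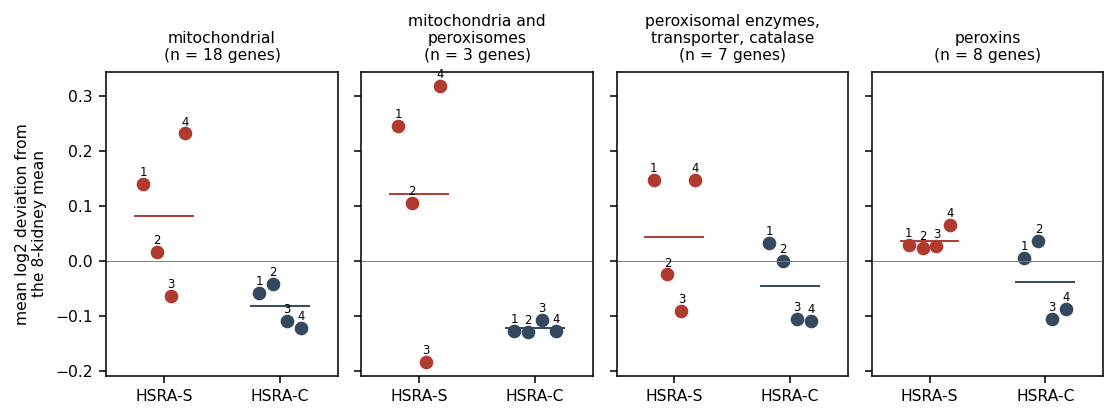
Mean log2 deviation of each class of members from the average over all 8 kidneys, HSRA-S left and HSRA-C right, with replicate numbers and a line at each group's mean. HSRA-S kidneys spread from -0.063 to 0.23 in mitochondrial genes, from -0.0909 to 0.15 in the other peroxisomal genes and from 0.0246 to 0.0667 in peroxins.

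A few kidneys stood out in the order of the members' values. HSRA-S replicate 4 was the top kidney of all 8 in 21 of 39 members (53.8%), against 13.9% of all genes. HSRA-S replicate 3 was the lowest of its group in 20 of 39 members (51.3%), against 23.0% of all genes. With replicate 3 set aside, the other HSRA-S kidneys lay above all controls in 16 members (41.0%, against 6.90% of all genes), and in 5, 4 and 5 members with replicate 1, 2 or 4 set aside instead (5.12%, 6.12% and 8.20% of all genes). At an unadjusted p under 0.05, 17 members were higher without HSRA-S replicate 3 (7.22% of all genes), 13 without replicate 2 (6.15%), 5 without replicate 1 (4.91%) and 5 without replicate 4 (8.29%). Leaving out a control gave 12 members in the case of replicate 1 (7.78% of all genes), 13 in that of replicate 2 (8.58%), 5 in that of replicate 3 (4.8%) and 7 in that of replicate 4 (4.5%). On the control side, replicate 3 had the lowest value of all 8 kidneys in 12 members (30.8%, against 12.1% of all genes) and replicate 4 in 9 (23.1%, against 17.6% of all genes).

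**Figure D4:**
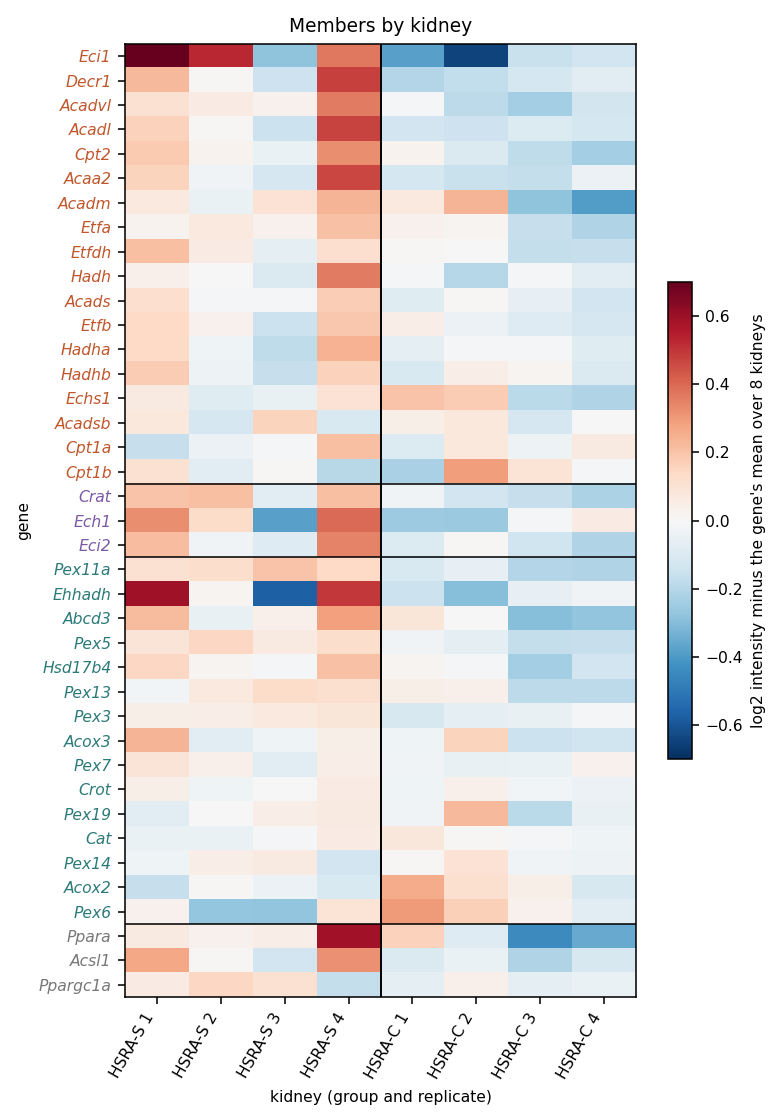
Log2 intensity of the 39 members in each kidney minus the gene's mean over the 8 kidneys, HSRA-S left of the line and HSRA-C right of it, with genes grouped by compartment (colour of the name) and ordered by difference. Mitochondrial genes are high in HSRA-S replicates 1 and 4, while Eci1, Ech1 and Ehhadh are low in HSRA-S replicate 3.

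Region markers of the kidney varied between kidneys too. In whole-kidney RNA, fewer cells of a type and less RNA per cell cannot be told apart. The 4 inner medulla markers measured, Slc14a2, Aqp4, Akr1b1 and Slc5a3, lay on the lower side in HSRA-S, 4 of 4, and 0 passed the test. Their mean deviation was 0.15, 0.16, 0.20 and -1.66 in HSRA-S, against -0.96, -0.16, 1.03 and 1.24 in HSRA-C. HSRA-S replicate 4 was lowest, HSRA-C replicate 1 was next to it, and HSRA-C replicates 3 and 4 were highest in these markers. In the members the mean deviation was 0.13, 0.0215, -0.0535 and 0.19 in HSRA-S, against -0.029, -0.0235, -0.12 and -0.12 in HSRA-C. Of 13 proximal tubule markers, 8 were on the higher side (61.5%, against 55.5% of all genes) and 0 passed, with a mean log2 level of 10.24 to 10.54 in HSRA-S and 10.19 to 10.38 in HSRA-C. Of 10 collecting duct markers, 9 were on the lower side, with mean levels of 8.17 to 8.54 in HSRA-S and 8.42 to 8.66 in HSRA-C. Of 6 thick limb and distal tubule markers, 3 were on the higher side, with mean levels of 9.97 to 10.18 in HSRA-S and 9.92 to 10.08 in HSRA-C. At an unadjusted p under 0.05, 2 thick limb and distal tubule markers and 2 proximal tubule markers were higher (7.36% of all genes). Lower at that p were 2 proximal tubule and 3 collecting duct markers (4.69% of all genes). Of 4 podocyte markers, 0 were on the higher side, with mean levels of 7.23 to 7.54 in HSRA-S and 7.41 to 7.53 in HSRA-C.

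With the proximal tubule mean minus the collecting duct mean of each kidney as a covariate, 32 of 39 members kept a positive difference and their median was 0.0902. Eci1 was then at 0.77, Pex11a at 0.25, Crat at 0.22 and Pex5 at 0.17, while Ppara was at 0.10 and Cpt2 at 0.14. Eci1, Pex11a, Crat and Pex5 were the 4 members higher at an unadjusted p under 0.05 in that fit (6.51% of all genes), and Acox2 and Pex6 were lower at that p. Of all genes, 1320 were at that p in either direction, 898 of them higher. The part of tubule balance in the members' differences was not tested.

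**Figure D5:**
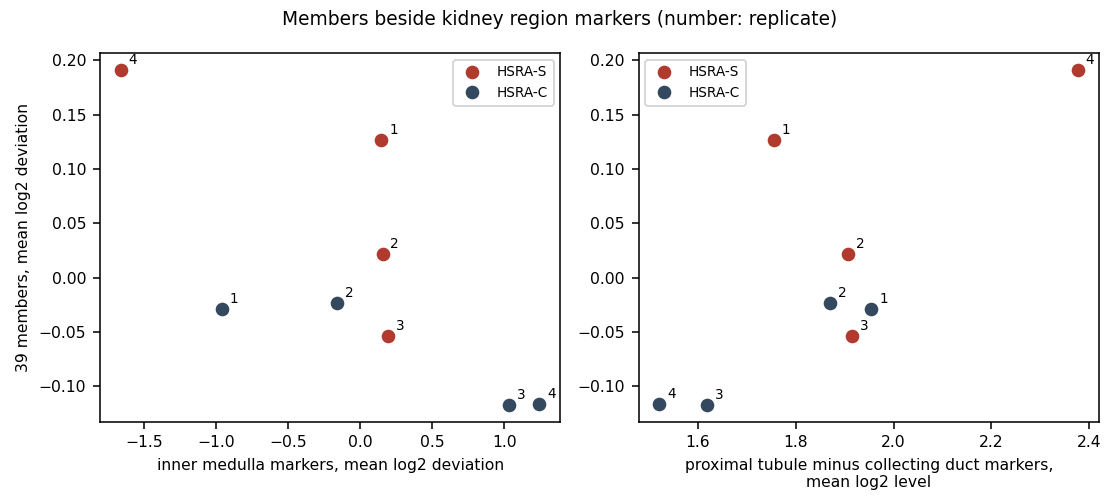
Mean log2 deviation of the 39 members (vertical) against the mean deviation of 4 inner medulla markers (left) and against the mean log2 level of proximal tubule minus collecting duct markers (right), 1 point per kidney with its replicate number. HSRA-S replicate 4 is at -1.66 and 0.19 in the left panel, and HSRA-C replicates 3 and 4 are at the opposite corner.

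Fat around the kidney is rich in the same oxidation genes, so its markers were read too. Of 8 fat markers tested, 7 were on the higher side, where 55.5% of all genes were, and 0 passed the test. At an unadjusted p under 0.05 by limma, 2 were higher (7.36% of all genes). The groups did not overlap in 2 markers, both higher in HSRA-S (4.12% of all genes). The markers' mean log2 level was 4.46 to 4.62 in HSRA-S and 4.25 to 4.45 in HSRA-C, close to the dim limit of 3.63. Ucp1, the uncoupling protein that defines brown fat, was at 3.96, 4.59, 4.45 and 4.43 in HSRA-S, against 4.04, 3.503, 3.83 and 4.36 in HSRA-C, and Adipoq, the adipokine of all fat cells, differed by 0.0441 (SE 0.14). The lipid droplet gene Cidea differed by 0.56 (SE 0.0916, adjusted p = 0.249). Elovl3 and Zic1 lay below the dim limit, and the part of fat in the members' differences was not tested. The mean log2 level of 3 adrenal markers was 4.57 to 4.67 in HSRA-S and 4.64 to 4.74 in HSRA-C, that of 5 muscle markers was 4.23 to 4.31 in HSRA-S and 4.22 to 4.29 in HSRA-C, and the liver genes Alb and Ttr lay below the limit. The kidney itself was marked by Slc34a1 of the proximal tubule at 11.86, 11.83, 11.84 and 12.09 in HSRA-S, against 11.94, 11.97, 11.92 and 11.94 in HSRA-C, and by Umod of the thick limb at 11.55, 11.58, 11.62 and 11.57 in HSRA-S, against 11.696, 11.68, 11.64 and 11.58 in HSRA-C.

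Other genes of the same pathways were read from lists set beside the members, and none passed at an adjusted p under 0.05. Of 13 further genes of mitochondrial fatty acid handling, 12 were on the higher side (median 0.19) and 7 were higher at an unadjusted p under 0.05, where 7.36% of all genes were. The carnitine-acylcarnitine carrier Slc25a20 was at 7.42, 7.39, 7.07 and 7.39 in HSRA-S, against 6.98, 6.98, 7.13 and 7.07 in HSRA-C, again with HSRA-S replicate 3 among the controls (difference 0.28, SE 0.0854). Mlycd, the malonyl-CoA decarboxylase that relieves the block on Cpt1, was at 6.15, 6.15, 6.15 and 6.17 in HSRA-S, against 6.03, 6.09, 5.83 and 5.63 in HSRA-C. Its groups did not overlap, and the difference was 0.26 (SE 0.0957). The acyl-CoA dehydrogenase family member Acad11 differed by 0.19 (SE 0.0627) and the thioesterase Acot9 by 0.22 (SE 0.079).

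Of 29 further peroxisomal enzymes and membrane proteins, 26 were on the higher side (median 0.13) and 4 were higher at an unadjusted p under 0.05, where 7.36% of all genes were. Their mean deviation was 0.0733, 0.0048, -0.0069 and 0.18 in HSRA-S, against 0.0856, 0.0191, -0.15 and -0.21 in HSRA-C. HSRA-C replicates 3 and 4 were the lowest kidneys, and HSRA-C replicate 1 lay above HSRA-S replicates 1 to 3. The very long-chain acyl-CoA synthetase Slc27a2 was at 10.14, 9.95, 9.903 and 10.19 in HSRA-S, against 9.87, 9.86, 9.62 and 9.77 in HSRA-C, without overlap (difference 0.27, SE 0.087). The coenzyme A hydrolases Nudt7 and Nudt19 differed by 0.16 and 0.18, and the enoyl-CoA reductase Pecr by 0.17. Of 9 further genes of peroxisome formation and division, 6 were on the higher side (median 0.0145), and Pex16, a membrane assembly factor, was the only gene of this list higher at an unadjusted p under 0.05 (difference 0.18, SE 0.078).

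Targets of PPAR alpha outside these lists were mixed. Of 13 tested, 9 were on the higher side with a median of 0.082. The lipid droplet coat gene Plin2 was at 7.04, 6.76, 6.701 and 6.72 in HSRA-S, against 6.47, 6.53, 6.57 and 6.66 in HSRA-C, without overlap (difference 0.25, SE 0.0852), and the thioesterase Acot1 differed by 0.27 (SE 0.11). The pantetheinase Vnn1 was at 9.81, 9.49, 8.79 and 10.24 in HSRA-S, against 9.23, 8.72, 9.39 and 9.73 in HSRA-C, with HSRA-S replicate 4 highest and replicate 3 below 3 of the controls. The kinase Pdk4, a target that was counted in the mitochondrial list, was at -0.0323 (SE 0.13), and the lipase inhibitor Angptl4 at 0.0194 (SE 0.17).

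Regulators of the program were spread around 0. Of 18 tested, 10 were on the higher side, the differences ran from -0.11 to 0.20 with a median of 0.00693, and 0 had an unadjusted p under 0.05 by limma. The PPAR partner Rxra differed by 0.16 (SE 0.0754), the estrogen-related receptor Esrra by 0.13 (SE 0.0688) and the proximal tubule factor Hnf4a by 0.20 (SE 0.0945). Esrrg, another estrogen-related receptor, was at 8.86, 8.78, 8.86 and 8.62 in HSRA-S, against 8.88, 8.88, 8.87 and 8.95 in HSRA-C. It was the only regulator of this list without overlap, on the lower side in HSRA-S (difference -0.11, SE 0.0678, adjusted p = 0.527). Of 12 genes of ketone, propionate and branched-chain handling, 10 were on the higher side (median 0.0676), led by the methylmalonyl-CoA mutase Mmut (0.24, SE 0.0858). Their mean deviation was 0.0333, 0.0413, 0.0334 and 0.0511 in HSRA-S, against 0.0466, 0.0999, -0.13 and -0.18 in HSRA-C. HSRA-C replicates 3 and 4 were lowest, HSRA-C replicate 2 was highest, and HSRA-C replicate 1 lay above HSRA-S replicates 1 to 3. Of 15 genes of fatty acid uptake and activation outside the members, 6 were on the higher side (median -0.0612), and the binding protein Fabp5 differed by -0.34 at a level close to the dim limit.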

How the data were processed

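The authors deposited 1 intensity per probe set and array, made with RMA per the submitters' processing notes, on a linear scale from 2.12 to 9259. RMA equalises array distributions and compresses dim values, so differences of dim genes are understated. Its software version and a genome build were not given in the sources used here. Log2 was taken without a pseudocount. Of 29214 probe sets, 18644 had 1 gene symbol in the platform annotation, 962 several and 9608 none; the brightest set stood for each of 17245 genes, and the dimmest 20% (3449 genes, up to log2 3.63) were left out, leaving 13796.

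Groups were compared with limma 3.58.1 in R 4.3.3 (lmFit, eBayes, group as the only term) on 8 arrays, with Benjamini-Hochberg adjustment over all 13796 genes, which gives every adjusted p. The number of arrays limits the precision. The steps were tested on simulated data. Members and gene lists were chosen with earlier results of these data known, so no test over the members as a set was made. Values per kidney are given for members at an unadjusted p under 0.05 or without overlap, for the member of each role with the highest mean, and for 6 genes whatever their values, with up to 4 genes of smallest p per list. The remaining members are given by difference. The values per kidney of Pex6, of Vnn1 and of the shared sets of Decr2 were chosen after their values were seen. So were the markers and list genes named beyond the smallest p (Pdk4, Angptl4, Adipoq, Cidea, Ucp1, Slc34a1, Umod). The labels do not state that equal replicate numbers pair the samples, and no pairing was used. Deviations of equal numbers correlated at -0.11 to 0.13. Unlike numbers were not compared, so these values cannot decide whether samples were paired. Start regions are from RefSeq, build GRCr8. Alternatives were the filter, probe set rule, eBayes settings, scaling, pseudocount, replicate block, samples left out and a tubule covariate.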

Additional observations from a re-analysis of the deposited data

Results flagged for a closer look

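Single kidneys far from the rest of their group were looked for in 78 groups of 4 values, where chance gives about 1 in 20, or 3.9. There were 2. Crat in HSRA-S replicate 3 was at log2 9.11, while replicates 1, 2 and 4 lay between 9.39 and 9.41. Ppara in HSRA-S replicate 4 was at 8.61, while replicates 1 to 3 lay between 8.05 and 8.09.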

How the results depend on the processing

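Across 20 alternatives, 0 members reached an adjusted p under 0.05 (lowest 0.141), and 31 of 39 members never changed sign. Eci1 and Pex11a were higher at an unadjusted p under 0.05 in all of them. The count of members higher at an unadjusted p under 0.05 was 12 (7.36% of all genes). It became 6 with median centred arrays (6.37% of all genes), 4 with the tubule covariate (6.51%) and 2 without HSRA-C replicates 3 and 4 (2.68%). With arrays quantile normalised again it was 6. There 1681 of all genes were at that p in either direction, and the share higher was not counted, so this count has no background. With single replicates left out the count of members higher ran from 5 to 17 (4.5% to 8.58% of all genes). The count lower at that p was 0 (4.69% of all genes), against 2 without HSRA-C replicates 3 and 4 (2.17%). It was 2 with the covariate, where 1320 genes were at that p in either direction, 898 of them higher. Without HSRA-C replicate 4 it was 2, where 1017 genes were at that p in either direction, 621 of them higher. Without HSRA-S replicate 4 it was 1, where 1699 genes were at that p, 1144 of them higher. It was 0 without any other single replicate. The cause of these shifts was not tested.

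Over all genes, 0 passed the adjusted test, and 1 did with the dimmest 50% left out, 1 with an eBayes trend and 1 with a pseudocount of 16. Genes at an unadjusted p under 0.05 numbered 1663 of 13796, against 669 without HSRA-C replicates 3 and 4, and 1010 to 1942 with single replicates left out. With all 29214 probe sets tested, 2895 probe sets were at that p. The mitochondrial median minus the peroxisomal median turned to -0.00136 with the covariate. With the replicate block 9 members were higher at an unadjusted p under 0.05, and 1586 of all genes were at that p in either direction. The share of all genes higher was not counted in that fit. The block changed no direction, and the labels name no shared source for equal numbers.

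Sign changes occurred in 8 members. Acadsb was -0.00862 with median centred arrays and -0.0199 with quantile normalisation, and Echs1 -0.0240 with the second. Without HSRA-C replicates 3 and 4, Acadm was -0.0630, Acadsb -0.0573, Acox3 -0.0210, Cpt1a 0.00978, Echs1 -0.18 and Pex19 -0.0909. With the covariate, Cpt1b was 0.00734, Echs1 -0.11 and Pex19 -0.0508. With single replicates left out, Acadsb ran from -0.0474 to 0.0425, Cpt1a ran from -0.075 to 0.0502, Cpt1b ran from -0.17 to 0.00813, Echs1 ran from -0.0542 to 0.0819, Pex14 ran from -0.0516 to 0.0133 and Pex19 ran from -0.0408 to 0.0972. Dim genes are limited by the array floor, and 4 arrays per group limit every interval.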
